A study of Caenorhabditis elegans with 2 samples.

Results

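Among the LIN-13 binding regions of Caenorhabditis elegans embryos, 257 lay on the autosomes away from every promoter of a protein-coding gene and every tRNA gene. They were chosen by position alone, from the 1534 peaks of the authors' optimal list, of which 1256 were autosomal. A peak was taken when its summit, its highest point, was on chromosome I to V, was not between 1000 bp upstream and 200 bp downstream of any protein-coding transcription start site (TSS), and was over 200 bp from every tRNA gene. The other autosomal peaks were 961 promoter peaks and 38 peaks close to a tRNA gene, and 278 peaks were on the X chromosome.

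The data were chromatin immunoprecipitation and sequencing (ChIP-seq) of whole, mixed-sex, mixed-stage embryos of strain OP51, as 2 biological replicates in 1 group. Both replicates carried the integrated transgene wgIs51, which expresses LIN-13 fused to eGFP, and the unc-119(ed3) III mutation. The labels name the tagged protein as the target and lin-13 as the antibody, so whether tag or protein was recognised is not stated. No untagged strain was analysed, so binding that does not depend on LIN-13 was not tested for, and lists of binding regions give no expression with which to check the tissue. The lin-13 gene belongs to the class B synthetic multivulva genes, which restrain vulval fate, and its product has zinc fingers and works together with the HP1 homolog HPL-2.

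Small nucleolar RNAs (snoRNAs) guide chemical changes on ribosomal and spliceosomal RNA, and small nuclear RNAs (snRNAs) form the spliceosome or, in nematodes, carry the spliced leaders that are joined to messenger RNAs. Transfer RNA genes are transcribed by RNA polymerase III from internal elements called the A box and the B box, which are bound by TFIIIC. Genes of snRNAs instead have a proximal sequence element upstream of their start. Many worm snoRNA genes lie in introns of coding genes and have their own promoters.

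The sequences upstream of small RNA genes with a peak fell into a few arrangements, which are shown first because small RNA starts lay under 15 of the 25 regions of highest signal. Each run gives 110 bases upstream of the annotated gene start and 20 bases inside the gene, 5′ to 3′ on the gene's strand (ce11). Capitals mark matches to an A box (TGGNNNAGNGG, with or without 1 more base before the closing GG) and to a B box (GTTCNANNC), which the snoRNA genes below hold in the order found inside tRNA genes.
Y43F8C.22 (chrV:19643168-19643297, minus strand): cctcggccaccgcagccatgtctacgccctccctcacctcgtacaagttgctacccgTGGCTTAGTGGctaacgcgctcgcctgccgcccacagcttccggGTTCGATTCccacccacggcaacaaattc
T03F7.8 (chrV:11314148-11314277, plus strand): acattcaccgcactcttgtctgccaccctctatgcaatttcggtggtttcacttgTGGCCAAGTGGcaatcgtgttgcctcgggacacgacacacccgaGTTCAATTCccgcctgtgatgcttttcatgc
C51F7.3 (chrV:12303598-12303727, plus strand): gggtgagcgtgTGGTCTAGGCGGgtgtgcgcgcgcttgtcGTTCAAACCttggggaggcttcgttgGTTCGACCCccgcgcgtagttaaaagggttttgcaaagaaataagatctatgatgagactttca
W03C9.9 (chrII:11960788-11960917, plus strand): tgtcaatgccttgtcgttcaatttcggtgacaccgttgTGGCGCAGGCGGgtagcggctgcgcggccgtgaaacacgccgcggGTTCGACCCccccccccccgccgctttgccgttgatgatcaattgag
M106.6 (chrII:10840207-10840336, plus strand): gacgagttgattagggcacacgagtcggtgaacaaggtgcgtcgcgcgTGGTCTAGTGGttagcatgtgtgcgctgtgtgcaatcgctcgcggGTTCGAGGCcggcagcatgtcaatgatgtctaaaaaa
In a second arrangement, capitals mark the 8 letters GGAACCCG, shared by snRNA genes and a few snoRNA genes with a peak. The pair sls-2.14 and sls-2.15 encode spliced leader 2 RNAs and are transcribed away from each other. They have 1 peak in common, with its summit 24 bp upstream of sls-2.14 and 463 bp upstream of sls-2.15.
sup-6 (chrII:12944948-12945077, minus strand): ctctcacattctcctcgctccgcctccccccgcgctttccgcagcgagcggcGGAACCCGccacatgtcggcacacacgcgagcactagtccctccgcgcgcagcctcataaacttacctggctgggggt
sls-2.14 (chrIII:11090504-11090633, minus strand): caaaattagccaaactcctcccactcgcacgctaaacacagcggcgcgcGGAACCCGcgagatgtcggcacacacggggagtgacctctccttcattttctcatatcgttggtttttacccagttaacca
sls-2.15 (chrIII:11090900-11091029, plus strand): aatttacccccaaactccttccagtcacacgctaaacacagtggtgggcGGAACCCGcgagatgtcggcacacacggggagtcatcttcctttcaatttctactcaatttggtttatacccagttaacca
F01D5.12 (chrII:14018422-14018551, minus strand): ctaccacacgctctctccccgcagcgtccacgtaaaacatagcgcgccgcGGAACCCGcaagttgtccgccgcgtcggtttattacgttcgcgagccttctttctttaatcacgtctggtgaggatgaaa
C16D9.11 (chrV:8228950-8229079, minus strand): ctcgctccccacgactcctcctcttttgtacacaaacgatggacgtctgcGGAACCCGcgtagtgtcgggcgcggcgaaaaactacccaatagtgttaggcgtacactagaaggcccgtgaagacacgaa
A last set, given as examples, holds none of these letters in full. It was not picked by strength alone: the peak at ZK994.7, which also holds none and is not printed, had a higher signal (108.7).
R07E5.16 (chrIII:10989569-10989698, plus strand): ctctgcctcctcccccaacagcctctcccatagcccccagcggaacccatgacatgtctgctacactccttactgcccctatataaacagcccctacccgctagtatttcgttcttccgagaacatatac
sls-2.2 (chrII:5543488-5543617, plus strand): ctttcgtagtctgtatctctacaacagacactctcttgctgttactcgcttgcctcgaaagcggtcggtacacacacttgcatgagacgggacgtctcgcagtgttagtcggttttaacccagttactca
T26A8.6 (chrIV:8428720-8428849, minus strand): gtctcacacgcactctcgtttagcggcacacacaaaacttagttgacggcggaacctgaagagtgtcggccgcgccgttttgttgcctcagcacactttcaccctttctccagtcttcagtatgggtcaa

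Starts of small RNA genes lay near a larger share of these peaks than of the whole list. Of the 257 peaks, 51 (19.8%, exact 95% binomial interval over peaks 15.1% to 25.3%) had the start of a snoRNA, snRNA or miRNA gene in the same window of 1000 bp upstream to 200 bp downstream. Over all 1534 peaks 124 did (percent called 8.08), and over 16333 lower-ranked regions that met the same position rule 177 did (1.08%). Peaks of 1 experiment are not replicates of a condition, so these shares are given with their intervals and without a test.

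Genes of snoRNAs made up most of this set. A start lay in the window of 38 peaks for 39 of the 346 annotated snoRNA genes, and the summit lay 0 to 120 bp upstream of 36 of these 39 starts. The median summit was 36 bp upstream, with a range from 206 bp upstream to 117 bp downstream. For snRNA genes, 5 peaks covered 6 of 129 genes, with a median of 31 bp upstream. The range for snRNA genes was 463 to 16 bp upstream. For miRNA genes, 8 peaks covered 13 of 261 genes at a median of 341 bp upstream, so those summits lay farther out. No start of the 20 rRNA genes or the 100 antisense RNA genes was in a window. The broad class annotated only as ncRNA, with 7764 genes, had 66 with a peak at 55 regions. Its median of 19 bp upstream came from a wide range, 914 bp upstream to 194 bp downstream. Only 15 of its 71 starts had the summit 0 to 120 bp upstream. The other classes were few: 45 of 15363 piRNA genes, 7 of 2128 pseudogenes and 1 of 194 lincRNA genes, linc-1, whose start was 503 bp from a summit.

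**Figure D1:**
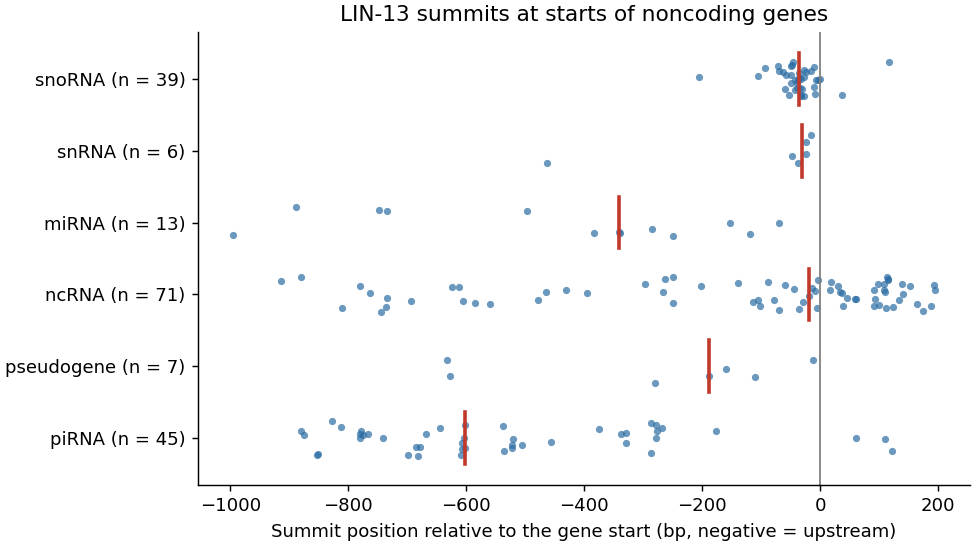
Position of the LIN-13 summit relative to the start of each noncoding gene in the window, in bp, by gene biotype. Each point is a pair of a summit and a gene start, red bars are medians, and the vertical line is the start. The snoRNA and snRNA points gather just upstream of the start, with medians of -36 and -31 bp, while miRNA, pseudogene and piRNA points spread over the window.

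The strongest region was in an intron of Y43F8C.7 (WBGene00012829), on chromosome V at 19643176 to 19643263 (ce11), 33 bp upstream of the snoRNA gene Y43F8C.22. Its signal, the authors' own enrichment value for a region, was 136.6, at pooled rank 53. It ranked 57 in replicate 1 and 81 in replicate 2. The next was in an intron of the cuticlin-like gene cutl-18, 53 bp upstream of the snoRNA gene T03F7.8, with a signal of 125.1. It stood at rank 319 in replicate 1 and 36 in replicate 2, so the replicates placed it unevenly. Both regions held an A box and a B box, printed above. The peak between C51F7.3 and C51F7.4 on chromosome V, a pair of snoRNA genes in tandem, had a signal of 109.8 and ranks of 380 and 64. Its summit was 72 bp upstream of C51F7.3 and 37 bp inside C51F7.4, in an exon of the latter.

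Several other snoRNA genes followed closely. The peak 24 bp upstream of ZK994.7, in an intron of the peroxidasin gene pxn-1, had a signal of 108.7 and ranks of 168 and 102. The intergenic peak 106 bp upstream of W03C9.9 had a signal of 92.98 and ranks of 726 and 119. Peaks at C05D2.15, T06C12.16 and T27A3.9 had signals of 90.2, 85.9 and 83.3, with summits 42, 58 and 7 bp upstream. Their ranks were 286 and 213 for C05D2.15, 401 and 187 for T06C12.16, and 540 and 199 for T27A3.9. In each of these cases the rank was better in replicate 2. The peak at B0334.12, in an intron of the potassium channel gene twk-5, differed in place, with its summit 117 bp downstream of the snoRNA start and ranks of 326 and 324.

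Among snRNA genes, R07E5.16 in an intron of the dynein gene dhc-4 had the strongest peak, at signal 98.03 and ranks 586 and 93. The peak 48 bp upstream of sup-6, a gene annotated as snRNA on chromosome II, had a signal of 96.05 and ranks of 452 and 198. At sls-2.2, a spliced leader 2 RNA gene, the summit lay 38 bp upstream at signal 87.1 and ranks 351 and 228. These positions are near the start, where the printed sequences end. The peak between sls-2.14 and sls-2.15 had its summit 24 bp upstream of sls-2.14 and 463 bp upstream of sls-2.15. It was weaker, at signal 43.7 and ranks 16879 and 769, so replicate 1 placed it far down. Another snRNA gene, F32B5.9 in an intron of cpz-1 had a signal of 68.7 and ranks of 645 and 252. The gene rpr-1, the RNA component of RNase P, also had a peak, annotated as ncRNA, with the summit 18 bp inside the gene, a signal of 64.9 and ranks of 630 and 309.

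Genes of snoRNAs with box elements upstream had a LIN-13 peak more often than those without. The elements were searched after sequences at these peaks had been seen, so the contrast is not independent of that choice and is only a description. Of 346 snoRNA genes on all chromosomes, 18 held both an A box and a B box in the 130 bases, and 15 of these (83.3%) had an optimal-list summit within 200 bp of the start. The share was 58.8% of 17 genes with an A box alone, 45% of 20 with a B box alone, 37.5% of 16 with GGAACCCG and neither box, and 8.73% of 275 with none of the 3. Only the forward strand of the gene was read for these boxes. In the same window at 19973 protein-coding gene starts, 0.386% held an A box, 1.94% a B box, 0.0100% both, and 0.0601% GGAACCCG. The snoRNA and snRNA counts include genes whose peak also lay in a coding promoter or on the X chromosome. Genes of snRNAs showed less of a contrast. A summit was near 4 of 24 with GGAACCCG (16.7%) and 9 of 91 with none (9.89%), and near none of 13 with a B box alone. Many snRNA genes are near-identical copies, so their peaks are uncertain where reads could map to several.

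GGAACCCG, and the B box where it stood alone, kept a narrow range of positions relative to the gene start. The A box, and the B box of genes with both boxes, had a wider one. At the 11 snoRNA genes of both boxes whose summit was close to the start, the A box began 99 to 53 bp and the B box 44 to 9 bp upstream, and the median summit was 49 bp upstream. At 6 genes with an A box alone it began 75 to 52 bp upstream, and at 7 with a B box alone that box began 16 to 5 bp upstream. GGAACCCG began 69 to 60 bp upstream at 4 snoRNA genes, 61 to 58 bp upstream at 3 snRNA genes, and 68 bp upstream at rpr-1. The remaining 10 snoRNA genes and 2 snRNA genes held no full match. In T26A8.6 and R07E5.16, printed above, the letters ggaacc occur without the full match. These motifs were searched after the sequences had been seen, and a match is a description of letters, not a binding site.

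**Figure D2:**
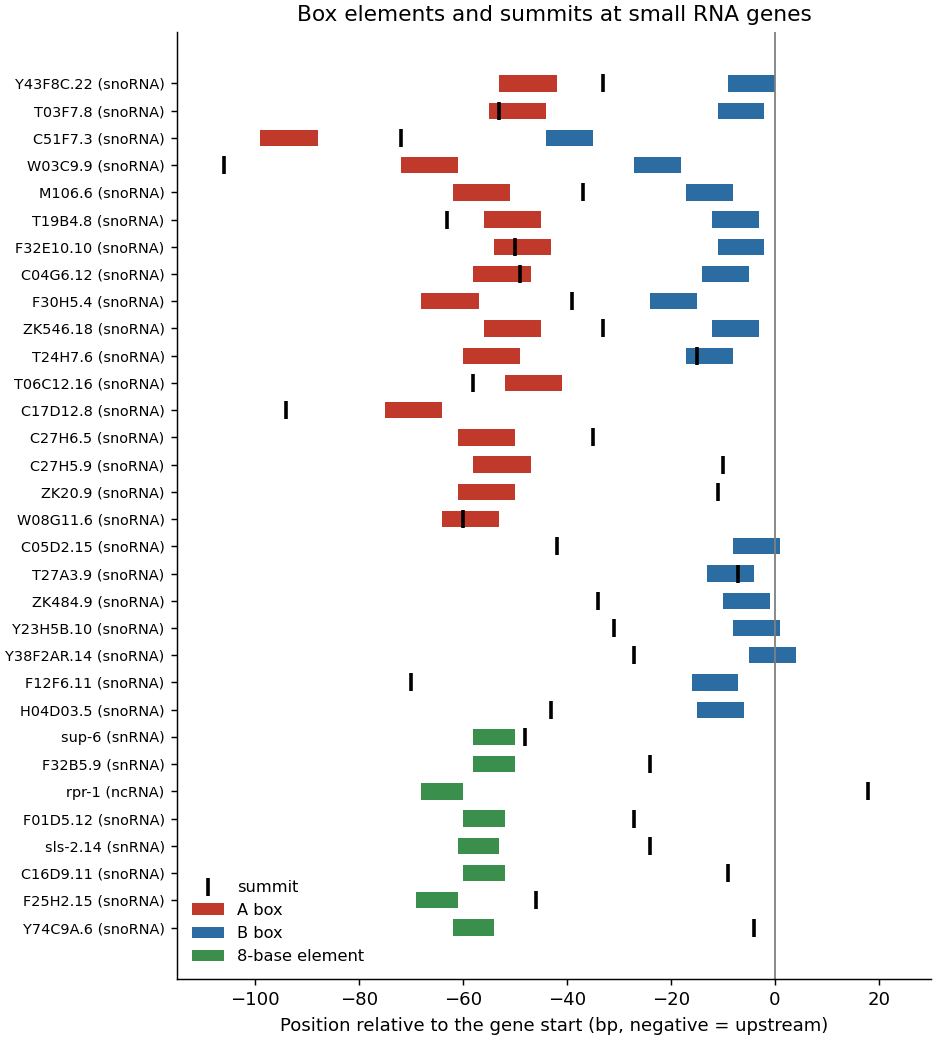
Positions of the A box (red), B box (blue) and GGAACCCG (green) on the gene's strand, with the LIN-13 summit (black tick), for small RNA genes that hold at least 1 of them. The x axis is the distance from the annotated gene start in bp. The A box stands 99 to 52 bp upstream and the B box close to the start. The summits, from 106 bp upstream to 18 bp downstream, lie before, between, inside or past the boxes. At genes with GGAACCCG, every summit lies past it, on the gene side.

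The same A box, B box and GGAACCCG were also counted in the 200 bp around every summit, on both strands. A B box was within 100 bp of 30 summits (11.7%), close to the 11.3% over all 1534 peaks, which include the tRNA peaks with 81.6%. The share was 5.52% of promoter peaks and 7.40% of lower-ranked regions. An A box was near 37 (14.4%), against 8.54% over all peaks, 3.54% of promoter peaks and 5.38% of lower-ranked regions. Of the 30 regions with a B box, 20 were at small RNA starts. GGAACCCG was near 10 summits (3.89%), against 0.913% over all peaks, 0.312% of promoter peaks and 0.545% of lower-ranked regions. Of the 209 annotated tRNA pseudogenes, none lay within 200 bp of a summit.

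MicroRNA genes with a peak included members of a seed family, which share bases 2 to 8 of the mature RNA, the part that pairs with targets. Seeds were compared only among genes with a peak, so other genes of a family are not counted. The genes mir-229, mir-64, mir-65 and mir-66, all in the window of the same region, share a seed. The 3 genes mir-51, mir-52 and mir-53 share another. The mature 5′ arms of these 3 are given from the RefSeq annotation of WBcel235 with the seed in capitals, to show that sharing.
mir-51 (chrIV:11026074-11026096, minus strand): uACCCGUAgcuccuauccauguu
mir-52 (chrIV:14034024-14034047, plus strand): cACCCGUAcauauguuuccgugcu
mir-53 (chrIV:11027653-11027676, minus strand): cACCCGUAcauuuguuuccgugcu
The mir-51 and mir-53 genes lie close together on chromosome IV, nearest to the haem-responsive gene hrg-5. The mir-51 peak, at 11026112 to 11026245, had its summit 70 bp upstream of the hairpin, a signal of 106.4 and ranks of 489 and 66. The mir-53 peak, 153 bp upstream, had a signal of 99.2 and the opposite order of ranks, 129 and 339. At mir-52, on another part of chromosome IV, the summit was 748 bp upstream with a signal of 49.1, and ncRNA starts lay nearer, such as Y37A1B.337 at 89 bp. That region ranked 556 in replicate 2 and had no summit within 100 bp in replicate 1. Matching summits in both replicates were thus seen at mir-51 and mir-53 and not at mir-52.

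The remaining miRNA regions were weaker. The peak 341 bp upstream of mir-58a, in an intron of Y67D8A.2, had a signal of 58.9, ranked 269 in replicate 1 and had no replicate 2 summit within 100 bp. The peak 119 bp upstream of mir-80 had a signal of 44.6 and ranks of 1321 and 985. A peak 285 bp upstream of mir-42, the first of the row mir-42, mir-43 and mir-44, had a signal of 38.8 and ranks of 1100 and 2972. For mir-229 the signal was 34.1 and the ranks were 395 and 2712, and for mir-90 the signal was 33.2, with rank 379 in replicate 1 and no replicate 2 summit within 100 bp. Replicate 1 thus placed the regions at mir-42, mir-229 and mir-90 higher, the reverse of most snoRNA regions.

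By location, most summits were intergenic or in introns, others were in exons of noncoding or coding genes, and none was assigned to coding sequence. Exons of noncoding genes were assigned first, so coding sequence that overlaps them was not counted as such. Intergenic summits numbered 125 (48.6%, interval 42.4% to 54.9%), introns of coding genes held 95 (36.97%, 31.0% to 43.2%), exons of noncoding genes 25 (9.73%, 6.39% to 14.02%), exons of coding genes 9 (3.50%) and introns of noncoding genes 3 (1.17%). Lower-ranked regions under the same rule were intergenic in 22.7%, in coding introns in 40.1%, in noncoding exons in 3.61% and in coding exons in 32.5%. Over all 1534 peaks, most of them at promoters, 70.2% were intergenic, 13.4% in coding introns, 11.3% in noncoding exons and 4.89% in coding exons. The intergenic share was thus above that of lower-ranked regions and below that of the whole list. Coding sequence held 0 of the 257, for which the interval reaches 1.43%, 0.652% of all peaks and 29.3% of the lower-ranked summits, so the absence is near the share of the whole list. The 9 exonic summits were in 5′ untranslated regions of C34C12.2, ZK484.6, F22D3.4 and unc-62, in 3′ untranslated regions of bed-2, eelo-1, snf-6 and pals-26, and in an exon of srd-70 that is not marked as coding. After C34C12.2, the strongest of these were at ZK484.6 (signal 64.04, ranks 924 and 412), bed-2 (49.2, ranks 1865 and 893) and srd-70 (45.7, ranks 1117 and 854), and all 3 were found in both replicates. The 3 summits in noncoding introns were in linc-129 (signal 61.9, ranks 502 and 585), the pseudogene WBGene00021886 (46.4, ranks 810 and 765) and linc-146 (44.9, ranks 973 and 1240), each with like ranks in both replicates.

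**Figure D3:**
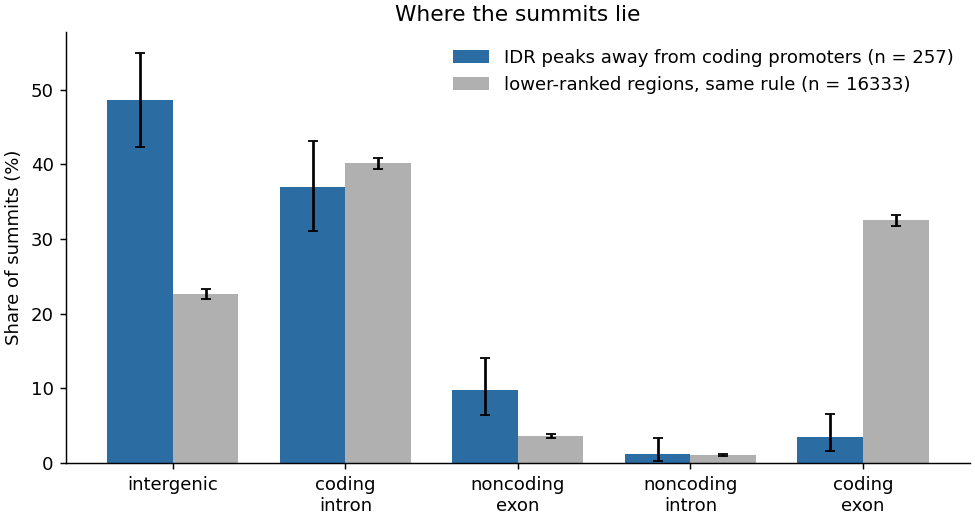
Share of summits in each location class, in percent, for the 257 peaks away from coding promoters and for 16333 lower-ranked regions that met the same position rule. Bars show shares and error bars are exact 95% binomial intervals over regions. Intergenic summits are 48.6% and 22.7%, and coding-exon summits 3.50% and 32.5%.

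Strong regions without a small RNA gene were found in noncoding exons, coding introns, an untranslated region and intergenic sequence. The peak in an exon of the long noncoding RNA linc-128, on chromosome V at 1151364 to 1151647, had a signal of 122.7 and ranks of 71 and 99. Its nearest coding start was that of cmd-1, the calmodulin gene, 4765 bp away. An intron of Y111B2A.12 held a peak with a signal of 113.4, at ranks of 1724 and 72. The peak in the 5′ untranslated region of C34C12.2 had a signal of 110.8 and ranks of 198 and 103. At nlp-40, a neuropeptide gene on chromosome I, an intergenic peak 1913 bp downstream of the start had signal 105.2 and ranks 1455 and 52, in sequence that was 66% soft-masked. Regions at linc-128 and C34C12.2 were thus high in both replicates, and those at Y111B2A.12 and nlp-40 stood high in replicate 2 alone.

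The rest of the 25 strongest were of mixed kinds. Intergenic peaks near fce-2, a CAAX protease gene, and near Y17G7B.17 had signals of 81.6 and 79.5. The fce-2 region ranked 3075 and 146, and the Y17G7B.17 region 516 and 300. Another intergenic peak, 1162 bp upstream of the casein kinase gene kin-19, ranked 130 in replicate 1 and 548 in replicate 2, with a signal of 75.3. The ncRNA gene W08E3.5 had a peak at signal 91.04 and ranks 432 and 177, and the intergenic peak near Y17D7C.2 had a signal of 88.9 and ranks of 893 and 136. The snoRNA gene ZK484.9 completed the set at signal 77.8 and ranks 1623 and 182. Replicate 2 gave the better rank in all of these cases but kin-19.

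Distance to a coding start was set in part by the rule. Its median was 1911 bp, with a maximum of 20168 bp, and lower-ranked regions under the same rule had a median of 1849 bp. Within 2000 bp upstream of a coding start lay 88 summits, within 500 bp downstream 12, and over 5000 bp from every coding start 31. Near the edges of the rule, ell-1 (1002 bp upstream, signal 45.2), ZK484.6 (241 bp downstream, signal 64.04) and dmd-6 (282 bp from a tRNA gene, signal 36.9) were inside. M01F1.9 (991 bp, signal 40.8), F12F6.1 (195 bp, signal 36.9) and Y116F11A.6 (79 bp from a tRNA gene, signal 36.99) were outside. Many annotated worm starts mark where a spliced leader was joined, which is downstream of where RNA polymerase II started.

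Introns that held a summit had a median length of 2227 bp, from 224 to 19925 bp, and were not compared with other introns. Of the 95 intronic summits, 23 were at a small RNA start. A further annotated start of the host gene lay downstream of 44, at a median of 2333 bp (1007 to 9224 bp, the lower end set by the rule), and 42 of these 44 were at no small RNA start. The zfp-1 gene, which encodes the worm homolog of the leukaemia protein AF10, held 3 such summits. Its strongest had a signal of 85.3 and ranks of 103 and 759, and the others, with signals of 50.9 and 35.4, ranked 304 and 19143, and 939 and 2829. Replicate 1 thus placed all 3 higher.

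Some genes held clusters of these regions: 26 genes held or lay nearest to several, 60 summits in all, and 6 genes had 3 or more. The gene pqn-41, which encodes a protein rich in glutamine and asparagine, had 5 intronic summits over 16921 bp, with signals from 33.95 to 57.5. All 5 had a replicate 2 summit within 100 bp, and 3 had one in replicate 1. The chromatin remodelling gene let-526 had 3 with signals from 43.5 to 59.3, Y67D8A.2 had 3 from 34.3 to 58.9, and K01F9.2 had 3 from 33.2 to 44.6. The Y67D8A.2 group includes the mir-58a region, and the K01F9.2 group those of mir-80 and mir-90. At F54A3.2 the 3 summits, with signals from 34.03 to 42.7, were 57.5% to 86% masked. None of these F54A3.2 summits had a replicate 1 summit within 100 bp, and 2 had one in replicate 2.

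No gene group examined held more than 3 genes with a region. In all, 223 of 19973 protein-coding genes held or lay nearest to one of these regions (percent called 1.12). The counts were 1 of 81 cytosolic ribosomal protein genes, 1 of 90 homeobox genes, 3 of 269 nuclear hormone receptor genes, 3 of 67 GATA, bHLH, forkhead and T-box genes, 1 of 22 genes of the class B group with its partners, and 1 of 30 P granule and germline genes. Vulval induction genes (32), histone genes (72) and collagen genes (161) had none. With counts of 3 or fewer, the lists of 22, 30 and 67 genes are too small to set their shares apart from the background.

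The regions behind these counts ranked 451 or lower in the pooled list. In the class B group an intron of lin-9, a subunit of the DREAM complex that represses cell cycle genes, held a summit 2828 bp downstream of the start, at signal 52.8 and ranks 5833 and 337. Introns of the forkhead gene fkh-7 and of daf-16, the forkhead factor of insulin signalling, held summits 1213 and 1516 bp upstream of a further start. The fkh-7 region had a signal of 61.2 and ranks of 4270 and 694, and the daf-16 region a signal of 52.2 and ranks of 1336 and 971. Near hlh-2, the E protein gene, the summit was 1049 bp upstream with a signal of 43.4. Nuclear receptor genes nhr-46, nhr-20 and nhr-119 had signals of 43.8, 42.1 and 33.2. At unc-62, a homeobox gene, the signal was 35.8, with no replicate 1 summit within 100 bp. At mex-3, an RNA-binding regulator of embryonic fate, it was 37.2, with no replicate 2 summit within 100 bp. The ribosomal protein gene was rpl-31, near which 2 masked regions with signals of 63.5 and 37.3 had no replicate 1 summit within 100 bp.

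Support from both replicates was less frequent here than over the whole list. A summit within 100 bp was present in both replicate lists for 198 of 257 (77.0%, interval 71.4% to 82.04%), where the percent called over all 1534 peaks was 89.5 and over promoter peaks 92.4. The lists hold 30000 regions each and reach low ranks, and lower-ranked regions under the same rule were in both in 12.3%. Among the first 1534 ranks of both replicates were 92 (35.8%, 29.9% to 41.99%), where the percent called was 51.5 over all peaks and 58.3 over promoter peaks. Replicate 2 alone had 41, replicate 1 alone 16 and neither list 2. Within 300 bp both lists held 237 (92.2%), against 98.3% of promoter peaks, with 19 then missing from replicate 1 and 1 from replicate 2. Whether the summits gained by the wider match are the same sites or unrelated ones was not tested. Low rank went with missing summits. In the stronger part of the optimal list, its first 767 ranks, both lists held 91.1% of 90 regions and 97.2% of 529 promoter peaks within 100 bp, and in the weaker part 69.5% of 167 and 86.6% of 432. Where a summit was found, the median rank was 1116.5 in replicate 1 and 845 in replicate 2. Of the 257, 3 were among the first 100 pooled ranks, and 2 were among the first 100 of both replicates, those at Y43F8C.22 and linc-128.

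Regions at snoRNA and snRNA genes were more often found in both replicates than the other regions, and about as often as all peaks. Of 43 regions at a snoRNA or snRNA start, 39 (90.7%, interval 77.9% to 97.4%) were in both lists. Among the first 1534 ranks of both were 27 (62.8%). For the other 214, the counts were 159 (74.3%, 67.9% to 80.01%, which overlaps) and 65 (30.4%). Median signals were 57.8 and 43.1. The shares in both lists and in the first ranks of both were 89.5% and 51.5% over all peaks. Over promoter peaks they were 92.4% and 58.3%. Of 44 regions at snoRNA, snRNA or miRNA starts found in both lists, 34 (77.3%, 62.2% to 88.5%) had the better rank in replicate 2. The share was 90 of 154 (58.4%, 50.2% to 66.3%) for the other regions found in both, whose interval overlaps, 475 of 888 promoter peaks (53.5%, 50.1% to 56.8%), and 743 of 1373 over the whole list (54.1%, 51.4% to 56.8%). Peaks close to tRNA genes, outside the rule, had a median rank of 1905 in replicate 1 and 742 in replicate 2.

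**Figure D4:**
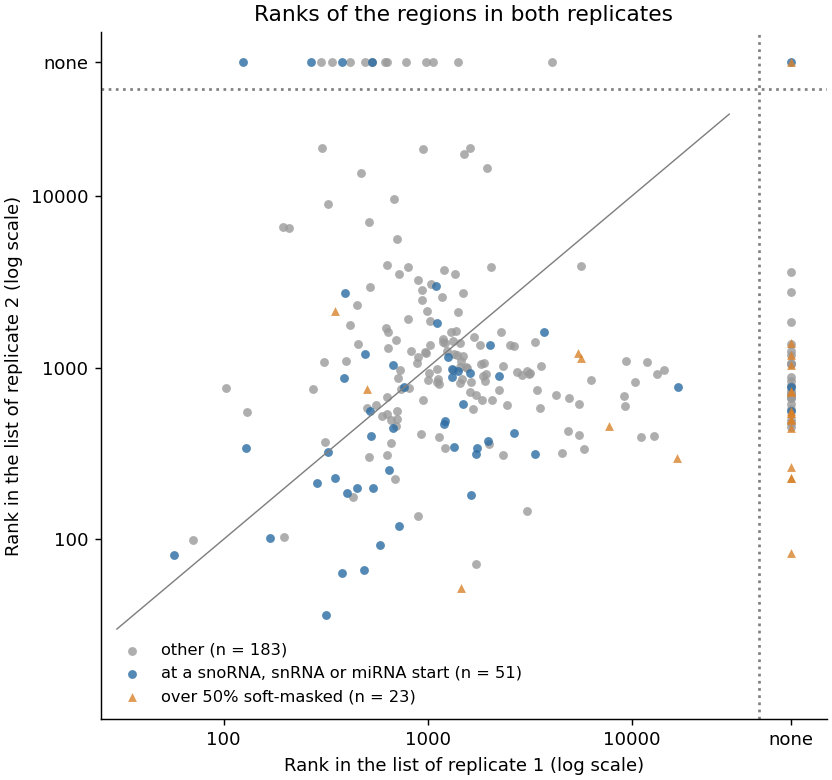
Rank of each of the 257 regions in replicate 1 (x) and replicate 2 (y), on log scales, with regions with no summit within 100 bp placed at "none". Blue points are at snoRNA, snRNA or miRNA starts (51), orange triangles are the 23 regions over 50% soft-masked, and the diagonal marks equal ranks. Of the 44 blue points with both ranks, 34 have the better rank in replicate 2, and 16 of the 23 triangles have no replicate 1 summit within 100 bp.

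Soft-masked sequence, which covers repeats and low-complexity runs of the reference, was less frequent here than at promoter peaks in the optimal list, and masked regions often lacked a replicate 1 summit. The 200 bp around the summit was over 50% masked in 23 of 257 (8.95%, 5.76% to 13.1%), where the percent called over all peaks was 14.1. This share depended on the replicate: among the first 1534 ranks of replicate 2 alone it was 18.7%, and of replicate 1 alone 1.82%. It was 19.9% in promoter peaks and 24.4% in lower-ranked regions under the same rule. Of the 23 masked regions, 16 (69.6%, 47.1% to 86.8%) had no replicate 1 summit within 100 bp, against 27 of the other 234 (11.5%, 7.74% to 16.3%). Within 300 bp the counts were 10 of 23 (43.5%) and 9 of 234 (3.85%), and all 23 then had a replicate 2 summit. In promoter peaks the same shares were 5.76% of 191 masked and 3.51% of 770 other peaks, and within 300 bp they were 2.62% and 0.390%. None of the 51 regions at small RNA starts was over 50% masked.

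**Figure D5:**
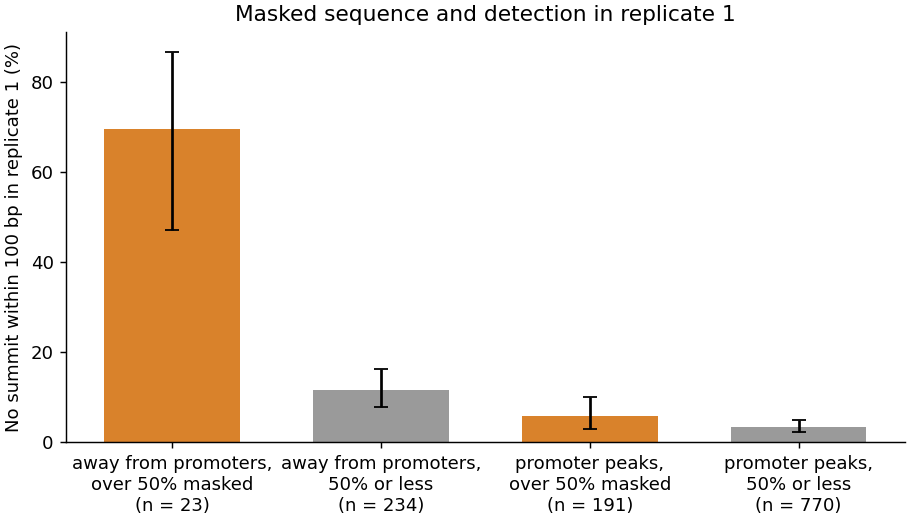
Share of regions with no replicate 1 summit within 100 bp, in percent, for regions over 50% soft-masked and for the rest, away from coding promoters and at promoters. Error bars are exact 95% binomial intervals over regions. The first bar, 16 of 23 regions, stands at 69.6%, and the other bars are at or below 11.5%.

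Of the 23 masked regions, 11 belonged to a dispersed family of related sequence. By pairwise alignment, 14 of the 257 formed a group joined by stretches of over 100 bases at 80% identity or more, and a further pair was joined in the same way. Aligned stretches within the larger group were 102 to 201 bases at 80% to 87.3% identity. They lay on every autosome but chromosome V, 10 of them in introns of coding genes. The strongest were near gvd-1 (signal 72.9) and rpl-31 (signal 63.5), with replicate 2 ranks of 83 and 226 and no replicate 1 summit within 100 bp. In all, 12 of the 14 had no replicate 1 summit within 100 bp and 8 had none within 300 bp. The 2 found within 100 bp ranked 11802 and 16670. In replicate 2 the 13 that were found ranked 83 to 1081. Words of 31 bases that occur again in the genome made up over 50% of none of the 257 windows, where the percent called over all peaks was 0.456.

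The likeness is visible in 120 bases around the summits of 3 regions of the group, in introns or exons on chromosome II, plus strand. Capitals mark CTACAGTA or its reverse complement.
gvd-1 intron (chrII:456503-456622, plus strand): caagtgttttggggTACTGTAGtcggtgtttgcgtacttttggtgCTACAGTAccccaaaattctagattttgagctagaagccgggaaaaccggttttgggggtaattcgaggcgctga
pqn-42 intron (chrII:2456010-2456129, plus strand): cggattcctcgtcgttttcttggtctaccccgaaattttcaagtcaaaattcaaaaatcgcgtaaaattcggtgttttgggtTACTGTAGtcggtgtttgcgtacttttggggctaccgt
F54A3.2 locus, exon of a noncoding gene (chrII:2247759-2247878, plus strand): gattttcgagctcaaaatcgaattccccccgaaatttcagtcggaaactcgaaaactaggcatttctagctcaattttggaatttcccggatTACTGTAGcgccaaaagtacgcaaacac
The 8 letters stood within 100 bp of 19 summits (7.39%), against 1.96% over all peaks, 1.04% of promoter peaks and 4.54% of lower-ranked regions, and 11 of the 19 were in the group. They were searched after these sequences had been seen.

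Runs of GA and the sequence CTGCGTC were also frequent under the summits. On either strand within 100 bp, GAGAGAGA stood at 50 summits (19.5%, 14.8% to 24.8%), against 8.60% over all peaks, 5.72% of promoter peaks and 2.83% of lower-ranked regions. CTGCGTC stood at 65 (25.3%, 20.1% to 31.1%), against 15.5%, 14.3% and 4.08%. Both were rarer at small RNA starts, where 7.84% held GAGAGAGA and 3.92% CTGCGTC. The 78 matches to CTGCGTC had a median distance of 29.5 bp from the summit, and 55 of them lay within 50 bp. For GAGAGAGA, 29 regions held several overlapping or separate matches.

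Both sequences occurred together in 23 regions, and in 16 of these the GA run stood on the strand opposite to CTGCGTC, that is beside GACGCAG. In 5 the order was the reverse, and 2 held both orders. The following runs give 120 bases around the summit on the plus strand, with CTGCGTC, GAGAGAGA and their complements in capitals, for some of the strongest intronic and intergenic regions that hold either and no noncoding gene start other than piRNA.
Y111B2A.12 intron (chrIII:12612589-12612708, plus strand): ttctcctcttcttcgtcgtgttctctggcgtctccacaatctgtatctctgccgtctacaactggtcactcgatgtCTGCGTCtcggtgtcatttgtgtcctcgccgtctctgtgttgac
intergenic near Y17G7B.17 (chrII:12102534-12102653, plus strand): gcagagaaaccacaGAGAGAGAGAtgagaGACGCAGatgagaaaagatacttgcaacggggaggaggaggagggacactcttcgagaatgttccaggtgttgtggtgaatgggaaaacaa
intergenic near kin-19 (chrIII:4087738-4087857, plus strand): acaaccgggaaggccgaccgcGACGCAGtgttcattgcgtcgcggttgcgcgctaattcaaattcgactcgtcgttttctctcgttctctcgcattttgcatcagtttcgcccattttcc
intergenic near H05C05.2 (chrIII:2966625-2966744, plus strand): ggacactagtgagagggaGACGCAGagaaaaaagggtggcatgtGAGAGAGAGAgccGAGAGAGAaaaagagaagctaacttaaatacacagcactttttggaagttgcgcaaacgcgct
pqn-41 intron (chrIII:1926551-1926670, plus strand): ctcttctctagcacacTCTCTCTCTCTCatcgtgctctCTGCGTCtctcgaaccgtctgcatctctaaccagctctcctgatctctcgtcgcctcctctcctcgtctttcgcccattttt
The H05C05.2 region had a signal of 63.1 and ranks of 4876 and 430, and the pqn-41 region a signal of 57.5 and ranks of 505 and 755. Regions with CTGCGTC were intergenic in 41 of 65 (63.1%, interval 50.2% to 74.7%). The share was 48.6% of all regions that met the rule and 70.2% of all peaks. They were found within 100 bp in both replicate lists in 53 of 65 (81.5%, 69.97% to 90.08%), against 77.0% and 89.5%. Both intervals thus include the share of the whole list.

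Other sequence features were nearer to the background. The E2F-like sequence, TTCCCGC or TTCGCGC or TTGCCGC or TTGGCGC, stood near 39 summits (15.2%), against 20.3% over all peaks, 23.4% of promoter peaks and 10.5% of lower-ranked regions. A GATA sequence, AGATAA or AGATAG or CGATAA or CGATAG or TGATAA or TGATAG, stood near 75 (29.2%), against 32.6%, 32.3% and 35.5%. The telomere-like TTAGGC stood near 6 (2.33%), against 4.76%, 5.41% and 6.82%. The windows were rich in G and C, with a median of 49% against 44.5% over all peaks, 41.5% in promoter peaks and 40.5% in lower-ranked regions. Motif shares were not matched for base composition, whose part in them was not tested.

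By chromosome, the share of optimal-list peaks that met the rule was 25.5% on chromosome III (78 of 306) and 18.3% to 20.4% on the other autosomes. The 35 regions on chromosome V held none over 50% masked, and 91.4% of them were in both replicate lists. On chromosomes I to III, where most of the masked group lay, 71.7% to 74.5% were in both lists.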

How the data were processed

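ChIP-seq region lists of 2 biological replicates were used, a list of 30000 regions per replicate, a pooled list and the optimal list made from these by irreproducible discovery rate (IDR), per the deposited text files. Column 7 of the deposited lists is the authors' signal per region and was used only to rank and describe regions within a list. The deposited −log10 q value (column 9) was 3.51 for every optimal region and was not used. No source used here gives the aligner, peak caller or IDR threshold. Without read counts the depth is unknown, and intervals (exact binomial, 95%) cover peaks only. The ce11 lists were used. The ce10 lists and the control experiment named in the labels were not analysed here.

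Summits were placed on the Ensembl release 115 annotation of WBcel235, which is ce11, and masked bases and sequence were read from NCBI RefSeq's soft-masked genome of that build. Placement was tested on constructed positions. A region counted as found in a replicate when a summit lay within 100 bp. Lower-ranked regions were pooled regions over 1000 bp from every optimal summit that met the same position rule. Members were aligned with blastn 2.17.0 and tables were computed with Python 3.11.15, pandas 2.3.3 and scipy 1.17.1. The rule for named genes took the 25 members of highest signal, the 4 highest in each class, up to 8 per noncoding biotype and up to 4 per gene list, and those nearest the thresholds. Members, lists and motifs were chosen with earlier results of these data known. Box elements, GGAACCCG and CTACAGTA were searched, and the wider replicate match by class added, after the data had been seen. No test was made, since the design has 1 group and peaks are not replicates. Alternatives were other promoter windows, distances, mask and motif windows, stricter peaks and each replicate alone. Some miRNA sequences are not reported here.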

Additional observations from a re-analysis of the deposited data

How the results depend on the processing

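Of 88 alternatives, 57 moved a result by less than its interval, or a count by less than 1.5 times, and 31 moved it further. The cause was not tested. Among the first 767 ranks of the optimal list 90 regions met the rule, with 41.1% intergenic, 14.4% in noncoding exons, 47.8% at a noncoding start, 91.1% in both lists, 63.3% in the first 1534 of both, 8.89% with an E2F-like sequence and a median coding distance of 1607.5 bp. A window of 2000 bp upstream left 160 regions at a median of 2863.5 bp. With 500 bp upstream the median was 1336 bp and 29.9% were intronic. Taking 1 start per coding gene, the 5′ end of the whole gene, gave 40.7% intergenic, 43.97% intronic and 1569 bp. Placing introns before noncoding exons gave 43.2% intronic and 3.50% in noncoding exons. Both lists held 92.2% within 300 bp and 91.8% by any overlap, and the first 3000 ranks of both held 56.4%. Over 500 bp 13.6% were over 50% masked, and 75.1% held any masked base. GAGAGAGA stood at 12.5% within 50 bp and 26.1% within 250 bp, and E2F-like sequence at 7.39% and 24.1%. With each replicate alone, the intergenic share was 38.5% to 50.5%, the intronic share 28.7% to 41.5%, the share at a noncoding start 31.3% to 37.8% and the masked share 1.82% to 18.7%.

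Depth is unknown, so absence from a replicate list does not show absence of binding. No paired analysis was possible because the data hold 1 group.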
